A study of Rattus norvegicus with 3 samples.

Results

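Cholinergic and motor neuron markers were followed in the rat vestibular nuclei, which take in balance signals from the inner ear, after removal of the left labyrinth. The group was defined by name as 10 genes: Chat, Slc18a3, Slc5a7, Slc10a4, Ache, Calca, Calcb, Isl1, Isl2 and Uts2. All probes whose RefSeq accession belongs to 1 of them were taken, which gave 10 probes for 9 genes, out of 41012 probes on the array and 8899 genes that a RefSeq accession names. No probe was matched to Chat, so the enzyme that defines a cholinergic neuron was not analysed here. Calca had 2 probes and the other 8 genes 1 each.

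The animals were adult Sprague-Dawley males weighing 200 to 250 g. One array held the vestibular nuclei of the operated side 1 day after left labyrinthectomy, another those of the operated side 7 days after it, and the last those of sham-operated controls. The protocol names 3 rats for each group because a single nucleus gave too little RNA, and calls the controls normal rather than sham-operated. With 1 array per group there was no test between conditions, and each difference below compares 2 arrays without an error from animals, dissections or labelling. The sources used here do not give the borders of the dissection, or which side of the controls was taken.

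Acetylcholine is made by choline acetyltransferase (Chat), loaded into vesicles by the vesicular acetylcholine transporter (Slc18a3) and split in the synapse by acetylcholinesterase (Ache), after which the high-affinity choline transporter (Slc5a7) takes the choline back up. Cranial motor neurons are cholinergic, and many of them also carry calcitonin gene-related peptide, made from Calca and Calcb. The motor nuclei of the abducens and facial nerves lie next to the vestibular nuclei, and so do the small cholinergic neurons that send efferent fibres to the inner ear. The values below cannot place a transcript in any of these cells. In such a bulk sample, a different number of cells of a type and a different amount of RNA per cell cannot be told apart.

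Slc18a3 lies inside the Chat gene in the rat annotation, and Calca and Calcb have no protein-coding gene between them. The promoter windows of Slc18a3, Slc5a7 and Calca are shown, as planned. That of Calcb was planned too, but none was at hand. Slc18a3 and Slc5a7, at separate loci, had like differences on both days. Each window, from RefSeq on the GRCr8 assembly, runs from 250 bases before the annotated start to 50 bases after it. Capitals mark the half-site TGACG of the cyclic AMP response element, in either orientation, and the E-box CANNTG.
Slc18a3, chr16:7722765-7723064, minus strand: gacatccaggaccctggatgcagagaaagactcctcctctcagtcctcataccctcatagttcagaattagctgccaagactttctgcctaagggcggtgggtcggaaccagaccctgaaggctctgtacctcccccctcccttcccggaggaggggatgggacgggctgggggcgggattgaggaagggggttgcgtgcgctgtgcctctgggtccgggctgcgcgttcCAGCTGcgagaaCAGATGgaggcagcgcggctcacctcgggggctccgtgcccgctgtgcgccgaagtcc
Slc5a7, chr9:7953460-7953759, minus strand: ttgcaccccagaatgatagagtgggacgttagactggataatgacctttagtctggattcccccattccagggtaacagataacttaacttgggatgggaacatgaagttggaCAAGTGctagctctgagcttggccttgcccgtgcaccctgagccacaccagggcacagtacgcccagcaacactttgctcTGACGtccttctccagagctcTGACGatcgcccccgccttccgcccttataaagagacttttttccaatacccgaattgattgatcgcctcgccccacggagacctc
Calca, chr1:178317480-178317779, minus strand: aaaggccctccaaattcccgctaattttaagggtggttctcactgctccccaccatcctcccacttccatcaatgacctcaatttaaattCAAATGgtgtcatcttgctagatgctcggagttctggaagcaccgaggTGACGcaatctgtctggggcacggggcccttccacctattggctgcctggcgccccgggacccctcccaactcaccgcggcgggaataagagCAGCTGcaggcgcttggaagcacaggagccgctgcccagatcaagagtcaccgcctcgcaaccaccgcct
The Slc18a3 window held 2 E-boxes, which began 20 and 8 bases before the start, and no TGACG. The Slc5a7 window held 2 copies of TGACG, at 57 and 36 bases before the start, and 1 E-box. The Calca window held 1 TGACG at 112 bases before the start and 2 E-boxes. Among all 33469 windows of this length, 21.2% held TGACG and 72.1% an E-box on either strand. The full element TGACGTCA, which 1.83% held, was in none of these 3 windows. Of the other windows at hand for the group, that of Isl2 alone held it, 74 bases before the start. TAATTA, a core that homeodomain proteins bind, was in 5.36% of all windows and in none of the 9 windows at hand for the group. A match of letters is a description and not a site of binding.

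Values are background-subtracted intensities on a linear scale, as the scanner software gave them. For a difference, log2 intensity was taken relative to the array's own 75th percentile, which was 5242 at day 1, 5676 at day 7 and 5692 in sham. A gene with a pair of probes was represented by the brighter one. A gene counted as measured when both arrays had its probe well above background and unsaturated, and as different at 2-fold or more. The errors given with single-spot probes are those the scanner software assigns to a spot, and they hold nothing of the difference between rats.

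At day 1 against sham, 6 of 8 measured genes of the group stood 2-fold or more above sham and 0 stood as far below it. Of all 6292 genes measured in this comparison, 8.26% were as much higher and 4.37% as much lower. Among the 3232 genes within these genes' range of mean level, the shares were 8.38% and 5.69%. The median log2 difference of the 8 was 1.80, beside 0.00 for all measured genes. The higher ones were Slc10a4, Calcb, Uts2, Slc18a3, Slc5a7 and Isl1, while Calca and Ache were within 2-fold. Under a stricter filter that keeps brighter probes alone, 4 genes remained and 3 of them were higher. With quantile, array-median or cyclic loess scaling, without scaling, or with normexp background correction, 5 of 8 were higher. The authors' series table gave 5 of 8 too, and the mean of a gene's measured probes gave 7 of 8. The group was assembled with earlier results of these arrays known, so its share is not independent evidence of a direction.

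At day 7 against sham the 9 measured genes were divided: 2 stood 2-fold or more above sham (Isl2 and Slc10a4), 3 as far below it (Calcb, Slc18a3 and Slc5a7) and 4 neither. With normexp background correction Slc10a4 was at 0.92 and Isl2 alone was past 2-fold above sham, and with brighter probes only, 0 of 2 were above and 1 was below. Of all 6261 measured genes, 11.1% were as much higher and 5.73% as much lower, and of the 4044 in the range of mean level 14.1% and 7.17%. The median of the 9 was -0.32, beside 0.05 for all genes. At day 7 against day 1, 6 of 8 stood 2-fold or more below day 1 and 0 as far above it. Of all 6142 measured genes, 5.32% were as much lower and 6.56% as much higher, and of the 3226 in the range of mean level 6.82% and 8.74%. The median was -1.96, beside 0.04 for all genes. The 3 comparisons share arrays in pairs, so a high value at day 1 enters both comparisons that use that array.

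**Figure D1:**
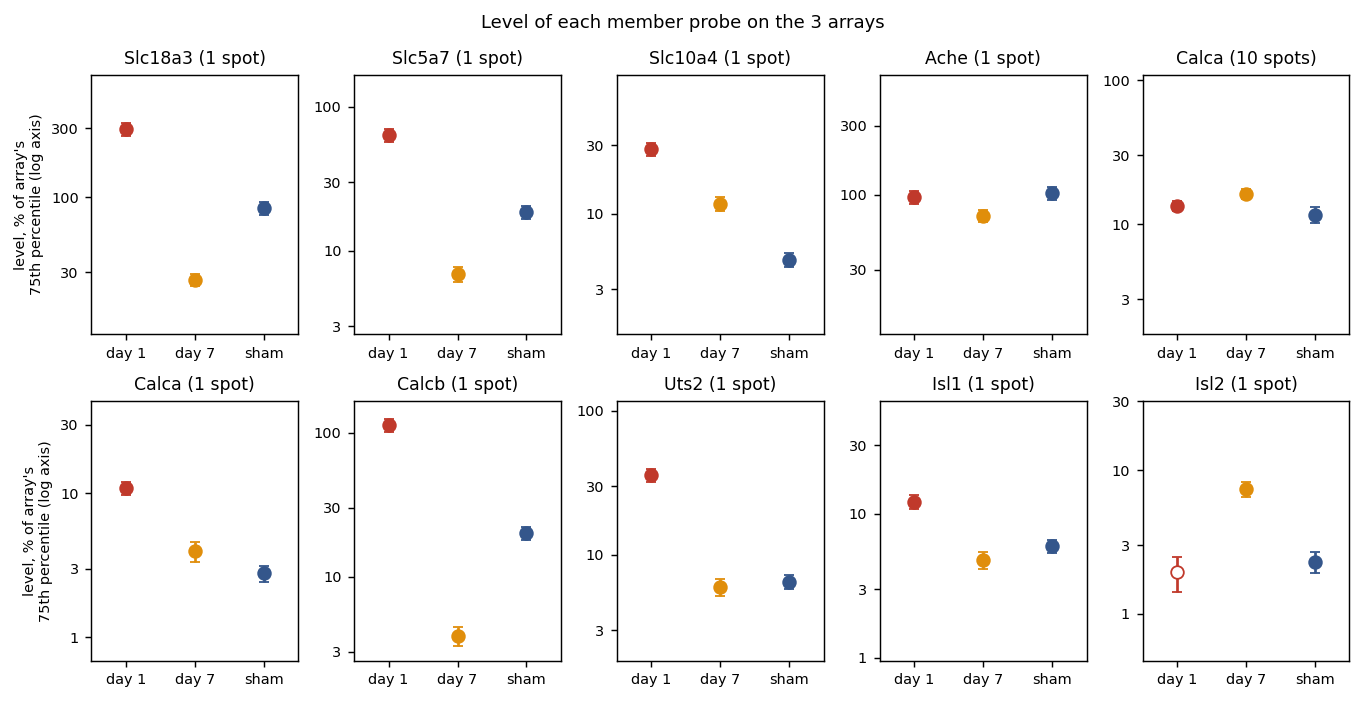
Level of each of the 10 probes on the 3 arrays, as a percentage of the array's 75th percentile on a log axis that spans the same range of folds in every panel. Bars are the SD of the spots for the 10-spot Calca probe and the scanner software's error for single spots, and the open circle marks a spot not well above background. Slc18a3, Slc5a7 and Calcb are highest at day 1 and lowest at day 7, Ache and the 10-spot Calca probe stay within 2-fold, and Isl2 is highest at day 7.

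The vesicular acetylcholine transporter Slc18a3 read 15538 at day 1, 1513 at day 7 and 4787 in sham. Day 1 was thus the highest array and day 7 the lowest, with sham between them. Relative to sham it was 3.52-fold higher at day 1 (log2 1.82 ± 0.20, scanner error) and 3.15-fold lower at day 7 (log2 -1.66 ± 0.21). Between the days it was 11.1-fold lower at day 7 than at day 1, which ranked 37 from the lowest of 6142 genes.

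The choline transporter Slc5a7, which limits the rate at which acetylcholine is made again, read 3342 at day 1, 391.6 at day 7 and 1055 in sham. The order of the arrays was that of Slc18a3. It was 3.44-fold higher at day 1 than in sham (log2 1.78 ± 0.21) and 2.69-fold lower at day 7 (log2 -1.43 ± 0.23). The day 7 value was 9.24-fold below that of day 1. The scanner-error ranges of Slc18a3 and Slc5a7 overlapped on both days.

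Slc10a4, a transporter-like protein on the synaptic vesicles of cholinergic and monoamine neurons, read 1475 at day 1, 670.5 at day 7 and 274 in sham. It was above sham on both days, 5.85-fold at day 1 (log2 2.55 ± 0.22) and 2.45-fold at day 7 (log2 1.30 ± 0.22, or 0.92 with normexp). At day 1 it ranked 30 from the highest of 6292 genes. Unlike Slc18a3 and Slc5a7, it was above sham at day 7.

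Acetylcholinesterase, Ache, which is found in many neurons that respond to acetylcholine as well as in those that release it, read 5043 at day 1, 4037 at day 7 and 5829.8 in sham. These are within 2-fold over the arrays, with log2 differences from sham of -0.09 ± 0.20 at day 1 and -0.53 ± 0.20 at day 7.

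Calcb, which encodes the beta form of calcitonin gene-related peptide, read 5881 at day 1, 218 at day 7 and 1141 in sham. This was the widest span of the group. It was 5.60-fold higher at day 1 than in sham (log2 2.48 ± 0.21), where it ranked 37 from the highest of 6292 genes, and 5.21-fold lower at day 7 (log2 -2.38 ± 0.26), where it ranked 60 from the lowest of 6261. With another background correction (normexp), the day 7 difference was -1.78. Day 7 lay 29.1-fold below day 1, which ranked 17 from the lowest of 6142 genes.

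Calca, which gives calcitonin or the alpha form of the peptide by alternative splicing, was measured by 2 probes that did not match. The probe on 10 spots stayed within 2-fold over the arrays. Its spots ranged from 636 to 838 with a median of 700.0 at day 1, from 848 to 1026 with a median of 918 at day 7 (over 7 spots, as 3 carried an outlier flag), and from 502 to 764 with a median of 682 in sham. All 7 spots of day 7 were brighter than all 10 of sham, whose 75th percentile was about the same, while the spots of day 1 and sham overlapped. The scaled log2 difference from sham was 0.21 ± 0.07 at day 1 and 0.49 ± 0.07 at day 7 (standard error over the spots of single arrays). The other probe, on 1 spot, read 569 at day 1, 224 at day 7 and 158 in sham. By it Calca was 3.90-fold higher at day 1 than in sham (log2 1.96 ± 0.25), 1.42-fold higher at day 7 (log2 0.50 ± 0.29), and 2.75-fold lower at day 7 than at day 1. With the mean of both probes the day 1 difference was 1.09 and the difference of day 7 from day 1 turned to -0.59, against 0.28 by the brighter probe.

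Uts2 encodes urotensin II, a small cyclic peptide found in motor neurons of the brainstem and spinal cord. It read 1883 at day 1, 341 at day 7 and 369.9 in sham, so day 1 stood apart and the other arrays were alike. It was 5.53-fold higher at day 1 than in sham (log2 2.47 ± 0.21) and at log2 -0.11 ± 0.25 at day 7. Neither its receptor Uts2r nor the related peptide Uts2b was well above background on the day 1 or day 7 array, while both were in sham, where the lowest signal that passed was lower. Uts2r read 80.2 at day 1, 102 at day 7 and 74.2 in sham, so its flags alone give no direction.

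Isl1 and Isl2 are LIM homeodomain transcription factors that set motor neuron identity in the embryo and are kept in some adult motor neurons. Isl1 read 637 at day 1, 272 at day 7 and 340.0 in sham. It was 2.03-fold higher at day 1 than in sham (log2 1.02 ± 0.22), at the edge of the 2-fold line, and it lay under that line in 6 of 10 alternatives. At day 7 it was at log2 -0.32 ± 0.26 against sham and 2.53-fold lower than at day 1.

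Isl2 differed from Isl1 in being highest at day 7. It read 102 at day 1, where it was not well above background, 417 at day 7 and 131 in sham. It was 3.18-fold higher at day 7 than in sham (log2 1.67 ± 0.30). Relative to day 1, only a bound can be given, at least 3.53-fold higher at day 7 (scanner error 0.43 in log2). For day 1 against sham the bound was 1.11-fold lower. The scanner error there, 0.46 in log2, is wider than this bound, so it gives no direction at day 1. For such a bound, the dim array is given its own reading or its lowest signal that is well above background, whichever is higher. The day 1 reading lay close to that lowest signal, which was 109 at day 1, 122 at day 7 and 66.9 in sham.

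**Figure D2:**
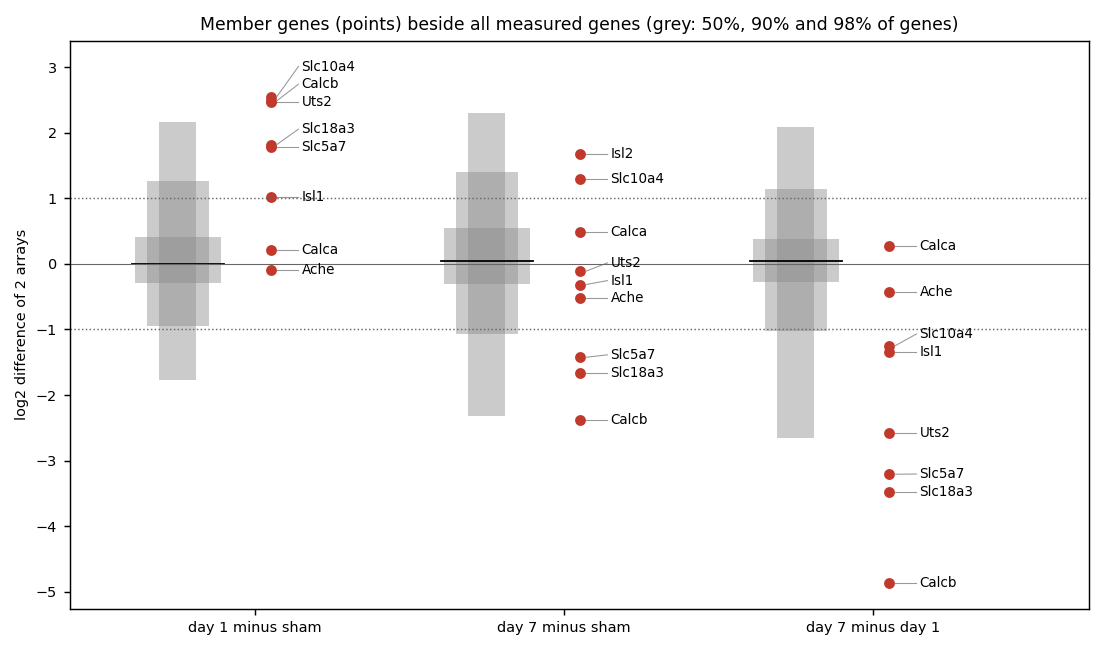
Log2 difference between arrays for each measured gene of the group (points, brightest probe) beside all measured genes, drawn as grey boxes that hold 50%, 90% and 98% of them with the median as a line; dotted lines mark 2-fold. At day 1 the 6 genes from Isl1 (1.02) to Slc10a4 (2.55) lie above the upper dotted line, and in the comparison of the days Calcb (-4.87), Slc18a3 (-3.47) and Slc5a7 (-3.21) lie below the lowest 1% of genes.

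The error of a spot does not cover the disagreement between probes of a gene. For the 1139 genes with a pair of measured probes, the log2 differences of day 1 from sham by the 2 brightest probes lay 0.34 apart at the median and 1.29 apart at the 90th percentile. Where the brighter probe gave 2-fold or more, which held for 74 such genes, the next probe did so in the same direction for 17. For day 7 against sham, 26 of 89 were. In the group Calca alone had another probe, so the differences of the other 8 genes rest on 1 spot per array each. All 3 arrays lay on 1 slide, and position on it cannot be told apart from group.

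Other genes of acetylcholine handling were nearer to sham at day 1. The list held 10 genes of choline uptake, choline kinases, acetylcholine breakdown and acetyl-CoA supply. Of these 7 had a probe, 6 were measured at day 1 against sham, and 0 were past 2-fold (median 0.17). Acly, the gene listed for acetyl-CoA supply, was saturated on all arrays and is outside these counts. At day 7 against sham 1 of 4 was at least 2-fold higher, Slc44a4, a choline transporter-like protein, at 2.14. Colq, the collagen tail that anchors acetylcholinesterase at the muscle synapse, was at 0.15 at day 1 and at least 4.65-fold lower at day 7. Butyrylcholinesterase, Bche, was at 0.04 at day 1 and -0.30 at day 7.

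Receptors for acetylcholine were mixed. Of 4 muscarinic receptor genes measured at day 1, Chrm1 was at least 2-fold higher (1.11) and the others were within 2-fold, and at day 7 0 of 4 were past 2-fold. Of 8 measured nicotinic subunits, 2 were higher at day 1 (Chrna7 at 2.21 and Chrna3 at 1.40) and 1 was lower (Chrna4 at -1.49), with a median of 0.59. At day 7, 1 of 7 was higher (Chrnd at 1.43) and 1 lower (Chrna4 at -1.42). Chrna5 is outside these counts because it was not well above background in sham; it was at least 2.68-fold higher at day 1 and at least 8.52-fold higher at day 7. Chrna7 was read from 10 spots, and its other 2 probes were well above background in sham alone. The subunits Chrna1, Chrna2, Chrna6, Chrna9, Chrna10 and Chrnb3 were not well above background on any array. Chrna9 and Chrna10 form the receptor on which efferent fibres act in the inner ear itself.

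Receptors of the calcitonin peptides also differed among themselves. The receptor Calcrl, which binds the peptide together with Ramp1, was at 1.54 at day 1 and -0.32 at day 7 against sham. Ramp1 itself was at 0.42 and 0.82, within 2-fold on both days. Calcr, the calcitonin receptor, was at -1.33 at day 1 and 1.55 at day 7, and Ramp2 was at -0.35 and -1.16. A further probe of Calcr was not well above background on any array. On each day 1 of 6 genes was past 2-fold above sham and 1 below it.

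Markers of neighbouring motor nuclei outside the group were mixed. Of 24 listed motor neuron genes, 15 had a probe, and the 9 without one included the motor neuron factors Mnx1 and Tbx20. At day 1 against sham, 0 of 14 measured were at least 2-fold higher and 1 was lower, with a median of 0.06. The lower gene was Esrrg, a nuclear receptor, at -1.38. At day 7 against sham, 2 of 13 were higher (Aldh1a2, which makes retinoic acid, at 1.76, and the transcription factor Gata3 at 1.07) and 1 was lower (Esrrb at -1.62), with a median of -0.16. Esrrg was not well above background at day 7 and was at least 13.2-fold lower than in sham. At day 7 against day 1, 1 of 13 was higher (Gata3 at 1.31) and 1 was lower (Esrrb at -1.26). The median was -0.11, and 6 of the 13 lay above 0. Esrrg was at least 5.10-fold lower at day 7 than at day 1. Peripherin (Prph), an intermediate filament of motor and sensory neurons, was at -0.91. Prph read 22272 at day 1, 12813 at day 7 and 16932 in sham. This is the order of Slc18a3 with differences within 2-fold, and the brighter probes of Ret and Rgs4 had it too. Other genes of the list had other orders: Phox2a, Nkx6-1 and Esrrb were highest in sham, and Gfra1, Aldh1a2, Gata3 and Fgf1 at day 7. The summed level of the 15 genes, in units of the array's 75th percentile, was 17.4 at day 1, 11.4 at day 7 and 13.1 in sham. Ret, Rgs4 and Prph made up 15.7, 9.78 and 11.2 of these sums. A further probe of Rgs4 went the other way at day 1 (-1.25, against 0.64 by the brighter probe), and the 2 further probes of Ret were not well above background on any array. The part of this sum in the differences of the cholinergic genes was not tested.

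Other cell types were set beside them in the same way. Genes of large projection neurons were within 2-fold of sham at day 1 (0 of 7, median -0.10), and at day 7 4 of 7 were at least 2-fold lower: Nefh (-2.30), Spp1 (-1.67), Nefl (-1.61) and Nefm (-1.17), with a median of -1.17. Their summed level was 29.4 at day 1, 17.3 at day 7 and 32.9 in sham. Spp1, osteopontin, is made by large neurons including motor neurons and was measured on 10 spots. General neuron markers had 0 of 5 past 2-fold on either day against sham, with summed levels of 18.0 at day 1, 14.5 at day 7 and 16.7 in sham without Eno2, which was saturated on all arrays.

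Monoamine neurons, which share Slc10a4, had 1 of 8 genes at least 2-fold higher at day 1 (Th, tyrosine hydroxylase, at 1.54) and 1 lower (Tph2 at -2.08), and 0 of 8 past 2-fold at day 7. Their summed level was 6.54 at day 1, 7.83 at day 7 and 6.85 in sham, of which Slc18a2, Ddc and Tph2 made up 5.49, 7.04 and 6.28. A further probe of Slc18a2 was at -1.32 at day 1, against -0.19 by the brighter probe, and at -0.09 at day 7, against -0.12. A further probe of Slc6a4 was at -0.26 at day 1, against 0.83 by the brighter probe. The transporters of the resident vestibular neurons, Slc17a6 for glutamate and Slc32a1 for GABA and glycine, were well above background on all arrays. Slc17a6 was at 0.03 at day 1 and 0.18 at day 7 against sham, and Slc32a1 at 0.09 and -0.02. Of the 6 genes listed for these neurons, 1 of 4 measured was past 2-fold above sham at day 1 (Gad2 at 1.16). At day 7 2 of 5 were above (Gad1 at 3.39 and Gad2 at 1.30) and 1 below (Slc6a5, the glycine transporter of inhibitory terminals, at -5.26). A further probe of Gad1 was at 1.59 at day 7, and another was well above background in sham but not at day 7.

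Markers of tissue outside the nuclei differed within each list. Of 8 measured muscle genes, 3 were at least 2-fold higher at day 1, led by Tnni3 (3.90) and Tnnt1 (2.42), and 4 at day 7, with Tnni3 at 6.25 and Tnnt1 at 3.95. Tnni2 was at 1.23 at day 1 and 1.01 at day 7, Myh7 at 0.63 and 1.46, and Ckm at 0.09 and 0.74. The remaining measured muscle genes were near sham or below it on both days. Acta1 was at -0.14 at day 1 and -0.47 at day 7, Mb at 0.00 and -0.33, and Tnnt3 at -0.31 and 0.15. The summed level of the 10 muscle genes with a probe was 1.60 at day 1, 4.01 at day 7 and 0.820 in sham, of which Tnni3, Tnnt1 and Ckm made up 0.953, 3.29 and 0.257. Of 4 measured choroid plexus and ependyma genes, 0 were higher and 1 lower at day 1 (Ttr at -1.20), and 3 were higher at day 7 (Sostdc1, Foxj1 and Folr1, from 1.72 to 1.86) while Ttr was at -0.10, with a summed level of 0.753 at day 1, 2.07 at day 7 and 0.934 in sham. Of the cerebellar genes, 1 of 4 measured was past 2-fold above sham at day 1 (Zic1 at 1.16) and 0 of 3 at day 7, where Zic1 was at least 6.64-fold lower. Gabra6, a marker of cerebellar granule cells, was not well above background on any array, and Kl and the Schwann cell gene Prx were not either. Of 4 Schwann cell genes, 0 of 3 measured were past 2-fold on either day, with summed levels of 5.49 at day 1, 4.01 at day 7 and 4.45 in sham. Of 8 nerve injury genes with a probe, 1 of 7 measured was at least 2-fold higher at day 1 (Adcyap1 at 1.15) and 2 of 8 at day 7 (Gal at 2.06 and Atf3 at 1.03). The part of any of these in the cholinergic differences was not tested.

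**Figure D3:**
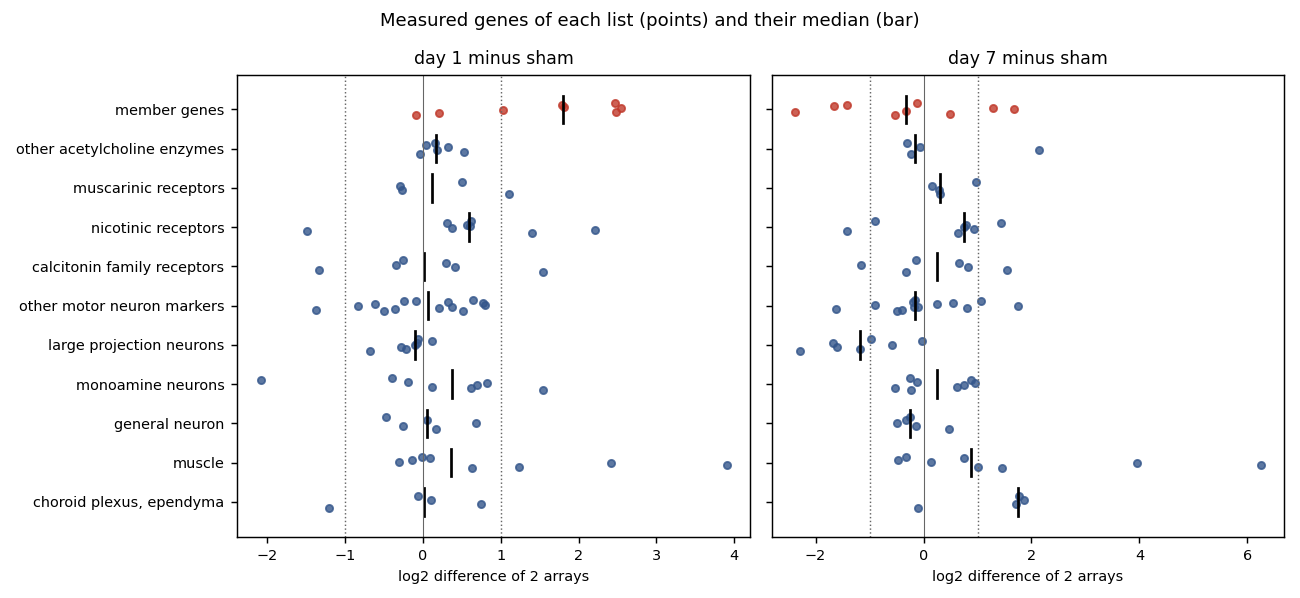
Log2 difference from sham at day 1 (left) and day 7 (right) for each measured gene of the group and of 10 other lists, with the list's median as a bar and 2-fold as dotted lines. At day 1 the group has the highest median (1.80), while other motor neuron markers centre at 0.06; at day 7 its genes spread from -2.38 to 1.67.

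The genes most like the pair of transporters in pattern were looked for over the 3 arrays. The measure was the smallest distance from the mean of Slc18a3 and Slc5a7 (1.80 at day 1 and -1.54 at day 7 against sham). The search covered 3436 genes measured on all arrays and bright on at least 1, and left out genes with a provisional name. The nearest 5 were Slc23a2 (distance 0.09), Slc39a3 (0.11), Abcf3 (0.12), Or2n1l (0.26) and Or52n1b (0.35). With 3 arrays this likeness rests on 2 differences that share the sham array.

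**Figure D4:**
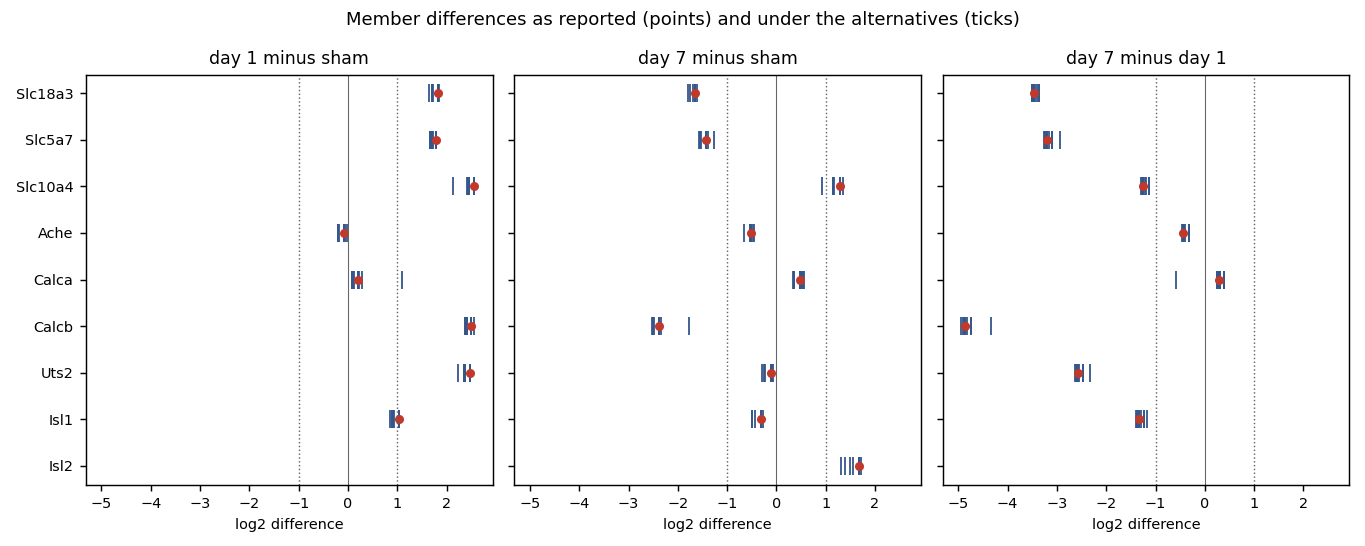
Log2 difference of each measured gene of the group as reported (points) and under up to 11 other ways of processing (ticks), for the 3 comparisons. Averaging the 2 probes of Calca gives 1.09 at day 1 and -0.59 between the days, normexp background correction gives -1.78 for Calcb and 0.92 for Slc10a4 at day 7 against sham, and the ticks of Isl1 at day 1 straddle the 2-fold line.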

How the data were processed

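RNA of rat vestibular nuclei was measured on 3 one-colour Agilent arrays, 1 each for day 1, day 7 and sham. Per the file headers, Agilent Feature Extraction 10.7.3.1 quantified the scans. The deposited files give each spot's background-subtracted intensity, its error and flags for detection, saturation and outliers, with no scaling between arrays. The headers name the build rn4, and no coordinates of probes are used. The authors' series table holds 34687 probes, and its intensity values equal those of the scanner files within 0.1 percent for 99.7% of the values.

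Spots well above background made up 77.3% (day 1), 76.9% (day 7) and 81.3% (sham) of 43379 non-control spots. Spots with an outlier flag were left out, log2 intensity minus the array's 75th percentile was averaged over the spots of a probe, and 10768 of 41012 probes were named through RefSeq accessions (GRCr8 table). A probe was above background when over 50% of its spots were. Differences were counted at 2-fold, with no p-value. Analyses used Python 3.11.15, pandas 2.3.3 and limma 3.58.1, and the counting was tested on simulated data.

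The genes of the group and the 15 other lists were chosen with earlier results of these arrays known. The text names every gene of the group and, from the other lists, mainly the 4 with the largest differences; further genes of those lists were picked with their values known. Alternatives were other scalings, normexp with an offset of 50 (on median spot signals, as the files have no mean signals), the authors' table, other filters, other probe rules and outlier spots kept. Promoter windows came from RefSeq, and no window was at hand for Calcb.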

Additional observations from a re-analysis of the deposited data

Results flagged for a closer look

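Slc18a3, Slc5a7 and Calcb stood at least 2-fold from sham on both days and in opposite directions. Slc18a3 was at 1.82 at day 1 and -1.66 at day 7, Slc5a7 at 1.78 and -1.43, and Calcb at 2.48 and -2.38, all as log2 differences from the same sham array. The difference between the days was not tested, since each day has 1 array. The groups were too small to look for outlying samples.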

How the results depend on the processing

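Of 25 differences of the group's genes, 24 kept their sign under all alternatives run for them and 22 their side of 2-fold; the exceptions were Calca (by the mean of probes) and, for 2-fold, also Isl1 at day 1 and Slc10a4 at day 7 (0.92 with normexp). With brighter probes only, which leaves fewer genes, the counts were 3 of 4 higher at day 1 against sham, 0 higher and 1 lower of 2 at day 7 against sham, and 3 of 4 lower at day 7 against day 1. With normexp 1 gene was higher at day 7 against sham, and without a filter on dim probes 1 was higher at day 7 against day 1. In the day 1 counts of 5, Isl1 fell under 2-fold, and in that of 7, Calca rose past it. With normexp at day 7, Slc10a4 fell under 2-fold. Without the filter, Isl2 entered, which was not well above background at day 1. Why these values moved was not tested. Without scaling the median gene lay at -0.12 (day 1 against sham) and 0.15 (day 7 against day 1). Higher genes made up 65.4% of all genes past 2-fold at day 1 and 66.0% at day 7 against sham, but 53.6% (day 1, no scaling) and 54.2% (day 7, array median) under other scalings, and 66.0% without scaling at day 7 against day 1, where the share was 55.2%. No paired analysis was possible because each group has 1 array, and for the same reason no array could be left out. Dim readings, such as Isl2, are limited by the signal over background.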
